A study of Mus musculus with 4 samples.

Results

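The genes described here build the machinery that carries newly made proteins into the endoplasmic reticulum (ER) and on to the Golgi. They were taken by symbol from the authors' deposited table of gene levels in 4 mouse livers: the signal recognition particle and its receptor, the Sec61 to Sec63 translocon, the translocon-associated protein (TRAP) complex, signal peptidase, the Pdia disulfide isomerases, the KDEL receptors, the p24 cargo receptors, the COPII and COPI vesicle coats and the Sec22 proteins. Of 24138 rows in the table, 69 matched, for 68 symbols, since Srp54b had 2 rows.

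Each liver came from a male C57BL/6J mouse aged 18 weeks that had been kept on the FAT-MASH diet, a diet model of metabolic dysfunction-associated steatohepatitis (MASH, fatty liver with inflammation and scarring), and had also been given resolvin D1 (RvD1), a lipid mediator of the resolution of inflammation. The labels number the livers 1 to 4 and give all of them this same strain, diet and treatment. Diet-only, vehicle-treated and untreated livers were not analysed here, so no level below measures an effect of RvD1 or of the diet, and no test between groups was made. The values are a description of single livers of 1 group and of the spread between them.

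Levels are given as FPKM, fragments scaled by transcript length and by the number of mapped fragments, so that genes of different lengths can be set side by side. About 20.1 M fragments (M for mega) were estimated behind liver 1, 19.4 M behind liver 2, 19.5 M behind liver 3 and 18.8 M behind liver 4. On a transcript of 1 kb a single fragment was then worth between 0.0496 and 0.0531 FPKM. Positions are whole gene spans from the table, for which the submitters' processing notes list the build mm10. The summed FPKM was highest in liver 4 (570681, against 516816 to 524394), so statements on liver 4 were recomputed with the libraries scaled to an equal sum. All 6 hepatocyte markers were abundant, and their summed level lay between 40230 (liver 2) and 50153 FPKM (liver 4). Of 7 markers of pancreatic acinar cells, a secretory cell type rich in this machinery, 6 were listed at 0 in every liver and Cela1 had 4.00 to 5.19 FPKM. The 8 markers of plasma and B cells summed to between 45.3 and 56.9 FPKM, of which Sdc1, also a hepatocyte gene, made up 40.7 to 50.9 FPKM, while Jchain had 0.541 to 1.79 FPKM. In whole liver, fewer cells of a type and less RNA per cell cannot be told apart.

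A secreted protein begins its path when the signal recognition particle binds its signal sequence on the ribosome and docks at the ER membrane, where the translocon passes the chain through. Signal peptidase trims it, disulfide isomerases help it fold, COPII vesicles carry it forward, and COPI vesicles and KDEL receptors bring escaped ER residents back. Hepatocytes use this route for albumin, clotting factors and lipoproteins.

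Nearly the whole module was expressed. A mean of at least 1 FPKM, called expressed below, was found for 62 of the 69 rows (89.9%), against 43.7% of all rows of the table. The median of the mean levels was 33.5 FPKM over these 62 genes and 7.83 FPKM over all 10541 expressed genes. Of the 62, 52 reached 10 FPKM (83.9%, against 43.1% of expressed genes) and 6 reached 100 FPKM (9.68%, against 7.67%). Those 6 were Sar1b, Pdia3, Cope, Sec61b, Ssr4 and Ssr3, which belong to 5 of the families. Summed over all 69 rows, the module held 2825, 2696, 2600.4 and 2866 FPKM in livers 1 to 4, between 0.502% and 0.539% of each library's summed FPKM.

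The 7 rows below 1 FPKM were each a relative of an expressed gene. Pdia2, a disulfide isomerase known from pancreas, and the p24 protein Tmed11 were listed at 0 in all 4 livers. Tmed6, another p24 protein, was listed at 0 in 3 livers and at 0.0782 FPKM in liver 3. Tmed8 had a mean of 0.430 ± 0.0541 FPKM (SD, n = 4), and Srp54a had 0.360, 0.194, 0.323 and 0.386 FPKM in livers 1 to 4. Kdelr3, the third KDEL receptor, had 1.13, 0.939, 0.481 and 0.936 FPKM in livers 1 to 4, and its span in the table is also that of Ddx17. The remaining row was the second of Srp54b, described with the signal recognition particle.

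**Figure D1:**
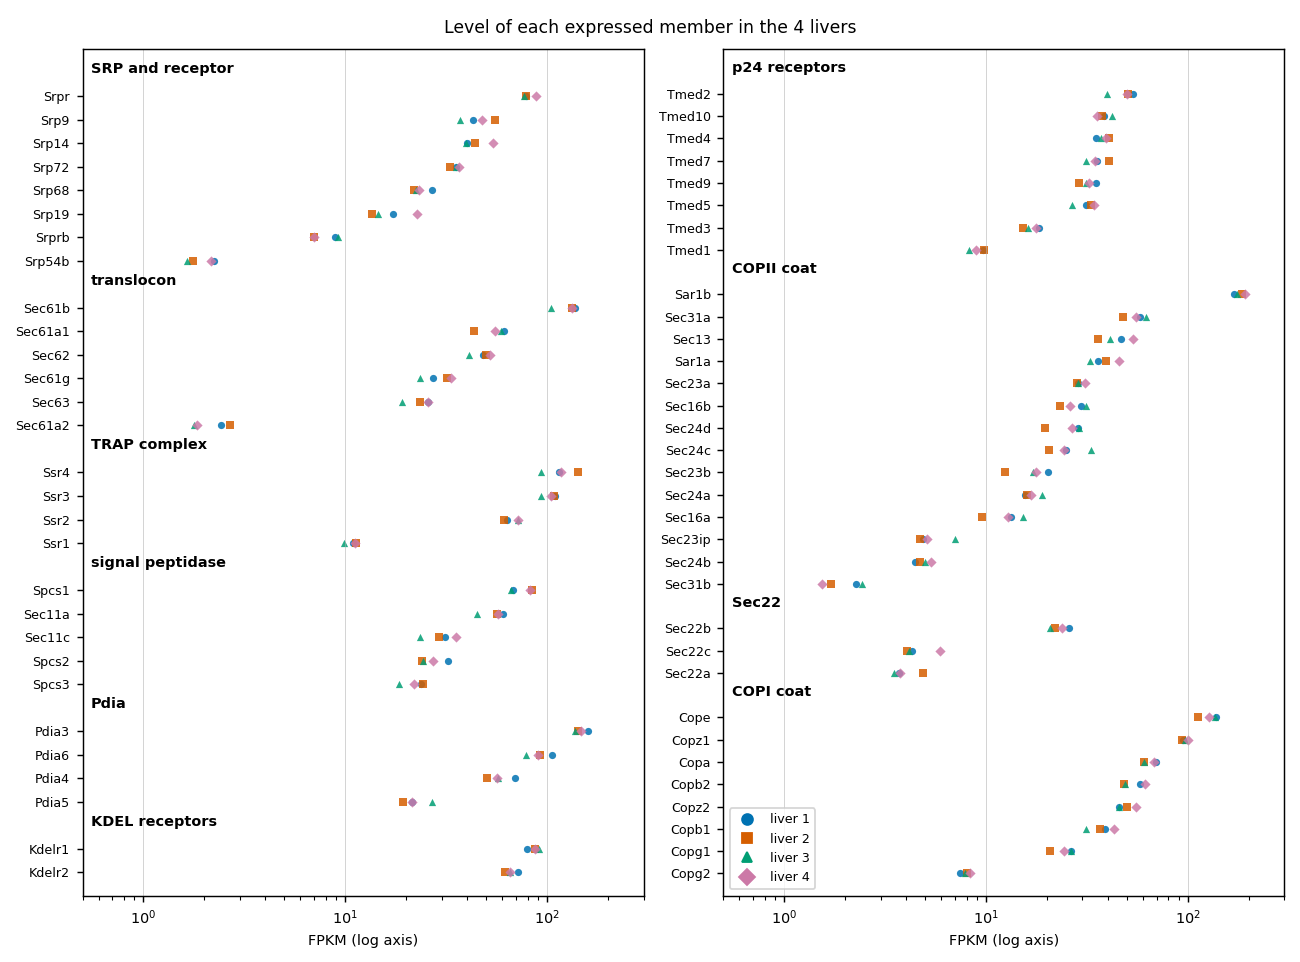
Levels of the 62 expressed genes on a log axis of FPKM, grouped by family, with 1 symbol for each of the 4 livers. Most genes lie between 10 and 100 FPKM and the 4 symbols of a gene lie close together, while Sar1b, Pdia3, Cope and Sec61b sit at the high end and Sec31b, Srp54b and Sec61a2 at the low end.

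The median spread between livers was close to that of all expressed genes. Between the 4 livers, the SD of log2(FPKM + 1) had a median of 0.17 over the 62 genes, with a range from 0.05 to 0.32, and a median of 0.16 over all expressed genes. The 90th percentile was 0.24 for the module and 0.30 for all expressed genes. A highest liver at least 1.5 times the lowest was found for 8 of 62 genes (12.9%), against 28.4% of expressed genes. With a minimum mean of 5 FPKM it was 6 of 56, against 18.1%. These 8 were Srp19 (1.68-fold), Sec23b (1.65-fold), Sec24c (1.62-fold), Sec16a (1.60-fold), Sec31b (1.59-fold), Sec61a2, Ssr4 and Sec11c (each 1.51-fold). COPII gave 4 of the 8, out of its 14 expressed genes, which is near the 28.4% of expressed genes. With 1 liver left out the count was 7 without liver 1 (22.9% of expressed genes), 3 without liver 2 (19.0%), 2 without liver 3 (16.4%) and 5 without liver 4 (19.7%). A single liver stood apart, by Dixon's ratio of the gap to the whole range on the log2 scale, for 4 of 62 genes (6.45%), against 5.46% of expressed genes. As deposited these were Srpr, Sec61b, Sec23a and Sec22c. With median-ratio scaling there were 5, against 5.41% of expressed genes, namely Sec22c again and Srp68, Sec22a, Sec24a and Sec23ip. With equal sums there were 3, against 5.37%, and these (Sec24a, Sec23ip and Spcs2) held none of the first 4.

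Promoter sequences were examined because the ER stress response is known to act on many of these genes through short elements. RefSeq (build GRCm38.p6) gave windows from 250 bases before to 50 bases after the transcription start for 58 of the 68 symbols. On either strand, TGACGTGG, a core of the unfolded protein response element known to be bound by XBP1 and ATF6, was present in 6 of 58 (10.3%), against 0.996% of 8135 expressed genes and 0.714% of all 27025 genes with a window. These were the COPII genes Sec16b, Sec23a and Sec24d, the COPI genes Copb1 and Copb2, and Kdelr3. The ER stress element, CCAAT and CCACG with 9 bases between them, was present in 1 of 58 (1.72%), Pdia6, against 0.184% of expressed genes, and a spacer of 8 to 10 bases added no other gene. Alone, CCAAT was in 26 windows (44.8%, against 42.7%) and CCACG in 39 (67.2%, against 52.4%). The reverse complement of TGACGTGG begins with CCACG, so each of its matches also holds those letters. The sequence TATAAA was in 1 window (1.72%), that of Sec31a, against 9.08% of expressed genes. A match describes letters in a window and is not a binding site.

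The 5 stretches below, each of 90 bases upstream of the start site and read 5′ to 3′ on the gene's strand, show the upstream matches in capitals. Positions count from -1, the base before the start site. The stretches of Copb1, Kdelr3 and Sec24d end at -1, that of Sec16b at -7 and that of Pdia6 at -50. For Copb1 and Kdelr3 the capitals are the reverse complement of TGACGTGG, for Sec16b and Sec24d the motif itself, and for Pdia6 both parts of the ER stress element. The stretches are chr7:114254681-114254770 (minus strand) for Copb1, chr15:79516318-79516407 (plus) for Kdelr3, chr1:157506700-157506789 (plus) for Sec16b, chr3:123267406-123267495 (plus) for Sec24d and chr12:17266450-17266539 (plus) for Pdia6.
Copb1: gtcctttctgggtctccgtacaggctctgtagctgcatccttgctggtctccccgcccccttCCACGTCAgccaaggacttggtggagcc
Kdelr3: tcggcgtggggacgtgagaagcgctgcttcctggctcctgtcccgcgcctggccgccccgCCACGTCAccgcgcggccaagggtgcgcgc
Sec16b: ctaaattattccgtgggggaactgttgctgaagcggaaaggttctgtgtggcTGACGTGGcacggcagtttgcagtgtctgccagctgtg
Sec24d: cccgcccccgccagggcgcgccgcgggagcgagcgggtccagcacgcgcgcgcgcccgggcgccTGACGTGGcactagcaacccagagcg
Pdia6: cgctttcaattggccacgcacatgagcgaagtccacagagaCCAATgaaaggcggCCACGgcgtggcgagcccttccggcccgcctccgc
The last base of the match is at -21 in Copb1, -23 in Kdelr3, -37 in Sec16b, -19 in Sec24d and -80 in Pdia6. In Copb2 the match runs across the start, and in Sec23a it begins at transcribed base 7.

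The members with TGACGTGG did not share 1 profile over the livers. The differences from each gene's mean of log2(FPKM + 1) were 0.15, -0.37, 0.17 and 0.05 for Sec24d and 0.11, -0.23, 0.19 and -0.07 for Sec16b in livers 1 to 4, with both lowest in liver 2. Copb1 had 0.06, -0.02, -0.24 and 0.20 and Copb2 0.11, -0.16, -0.14 and 0.19, with both highest in liver 4 as deposited. With equal sums Copb2 was highest in liver 1. Kdelr3, below 1 FPKM, had 0.20, 0.06, -0.33 and 0.06, and Sec23a -0.02, -0.04, -0.02 and 0.08.

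The signal recognition particle and its receptor had 8 expressed rows of 10. Srpr (XLOC_021771, chromosome 9, 35211203 to 35267805), the receptor subunit that meets the particle at the membrane, was the most abundant, at 78.6, 78.9, 77.2 and 88.3 FPKM in livers 1 to 4 (80.7 ± 5.08, SD, n = 4). Livers 1 to 3 lay close together and liver 4 stood above them, with a Dixon ratio of 0.832 as deposited and 0.646 with equal sums. The span of Srpr in the table is shared with Fam118b. Srprb, the membrane-anchored partner of Srpr, had 8.91, 6.98, 9.18 and 7.04 FPKM and was lower than Srpr in every liver. The 2 subunits of the particle's Alu domain, Srp9 (43.1, 55.4, 37.0 and 47.6 FPKM) and Srp14 (40.1, 44.0, 39.7 and 53.7 FPKM), overlapped in level and were both lowest in liver 3, though Srp14 was lowest in liver 1 with equal sums. The partners Srp72 (35.2 ± 1.43 FPKM) and Srp68 (23.6 ± 2.203 FPKM) did not overlap. Srp19, which helps load the signal-binding subunit onto the particle's RNA, had 17.2, 13.5, 14.5 and 22.7 FPKM, with liver 4 highest and liver 2 lowest.

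Srp54, the subunit that binds the signal sequence, could not be measured as 1 gene. Mouse has near-identical Srp54 copies side by side on chromosome 12. The row XLOC_004391, named Srp54b in the table (55230168 to 55263480), had 2.23, 1.77, 1.65 and 2.16 FPKM and lies where GENCODE annotates Srp54c, a symbol with no row. The row XLOC_004389, also named Srp54b, had 0.0217, 0, 0.0407 and 0 FPKM. Fragments from such copies can be divided among rows, so these levels are uncertain.

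The translocon pore has Sec61 alpha, beta and gamma subunits. Sec61b (XLOC_014343, chromosome 4, 47474661 to 47483233), the beta subunit, had 138, 132, 104 and 133 FPKM in livers 1 to 4 (127 ± 15.1, SD, n = 4), and liver 3 stood below the other livers with a Dixon ratio of 0.852 (0.555 with equal sums). Sec61a1, the main pore-forming subunit, had 61.2, 43.4, 59.0 and 55.4 FPKM and was lowest in liver 2, the only one of the 6 genes that was not lowest in liver 3. Sec61g, the gamma subunit, had 27.3, 32.1, 23.6 and 33.6 FPKM. Sec62 and Sec63, which assist the pore and link it to the chaperone BiP, had 48.0, 50.01, 40.9 and 52.3 FPKM and 25.6, 23.6, 19.1 and 25.7 FPKM. Liver 3 was below each of the other livers for both. Sec61a2, the alternative alpha subunit, had 2.44, 2.702, 1.79 and 1.85 FPKM, so that Sec61a1 held 96.0 ± 1.32% (SD, n = 4) of the alpha total. With equal sums Sec61a2 was lowest in liver 4.

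The TRAP complex assists the translocon with some signal sequences. Ssr4 (XLOC_023233, chromosome X, 73787028 to 73790828) had 114, 141, 93.7 and 117 FPKM and Ssr3 109.7, 108, 93.6 and 104 FPKM, both lowest in liver 3. Ssr2 had 63.3, 61.3, 71.4 and 71.7 FPKM, with livers 3 and 4 above livers 1 and 2. Ssr1 had 10.96, 11.3, 9.87 and 11.1 FPKM, and in each liver its level was 0.120 to 0.134 of the median of the 4 subunits.

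Signal peptidase pairs a catalytic subunit, Sec11a or Sec11c, with Spcs1, Spcs2 and Spcs3. Spcs1 (XLOC_006514, chromosome 14, 30999826 to 31019131) had 68.1, 84.6, 66.1 and 81.8 FPKM, but its span in the table also covers Glt8d1 and Gnl3. Sec11a had 60.6, 56.6, 45.1 and 57.1 FPKM and Sec11c 31.03, 29.0, 23.4 and 35.3 FPKM. Sec11a exceeded Sec11c in every liver, and its share of their sum was 66.1%, 66.1%, 65.9% and 61.8%, with liver 4 apart from the rest. Spcs2, with 32.1, 24.1, 24.2 and 27.3 FPKM, was highest in liver 1. Spcs3, a subunit without catalytic activity, had 23.7, 24.2, 18.5 and 21.9 FPKM and was lowest in liver 3, as were Sec11a, Sec11c and Spcs1.

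Across these 4 families of ER entry, 23 genes were expressed and 16 of them were lowest in liver 3, against 31.4% of expressed genes. The other 7 (Srp19, Srp68, Srp72, Srprb, Sec61a1, Ssr2 and Spcs2) were lowest in liver 2. With equal sums Srp68 and Srprb of these were lowest in liver 4. The median difference from the gene mean was 0.08, 0.01, -0.18 and 0.07 on the log2(FPKM + 1) scale in livers 1 to 4, against -0.01, -0.02, -0.01 and 0.04 over all expressed genes. By family the median in liver 3 was -0.24 for the translocon, -0.24 for signal peptidase, -0.13 for TRAP and -0.11 for the particle and its receptor, the last at -0.05 without liver 4. The families were joined after their values were seen. Liver 3 also had the lowest summed stellate and fibroblast markers (187 FPKM, against 210 to 291) and macrophage markers (46.3 FPKM, against 51.2 to 62.8). Of the 5 stellate and fibroblast markers, 3 were lowest in liver 3 and 2 in liver 4. Of the 4 macrophage markers, 3 were lowest in liver 3 and 1 in liver 1. The largest values in these sums were those of Dcn (140, 194, 117 and 141 FPKM) and Cd68 (25.2, 29.6, 19.8 and 32.3 FPKM). The part of these cell types was not tested.

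Transcript GC content moved with the same liver. Over 10 classes of expressed genes from low to high GC, the median difference in liver 3 went from -0.14 to 0.13, and in liver 2 from 0.08 to -0.07. The longest transcripts of the translocon had a median GC of 45.3% and those of signal peptidase 43.6%, against 49.8% for expressed genes. Taken from the median of genes in the same GC class, 10 of the 23 genes were lowest in liver 3, against 27.3% of expressed genes. The liver 3 medians were then -0.15 for the translocon, -0.10 for signal peptidase, -0.02 for TRAP and -0.07 for the particle and its receptor. The part of GC content in the pattern was not tested.

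**Figure D2:**
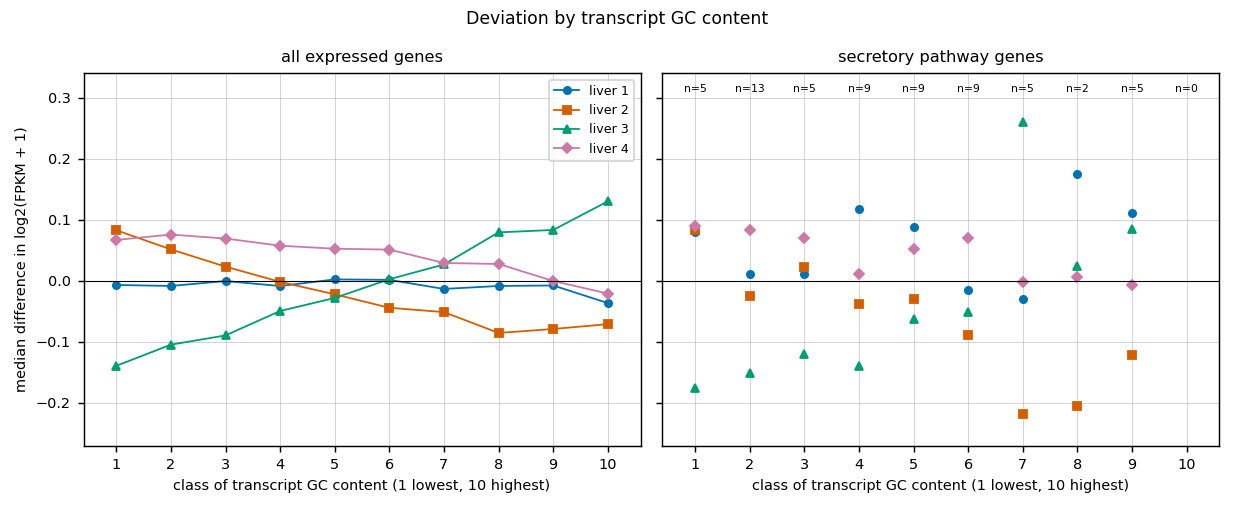
Median difference from the gene mean, in log2(FPKM + 1), by class of transcript GC content for all expressed genes (left, lines) and for the expressed genes of the module (right, points, with the number of genes in each class), 1 colour per liver. Among all expressed genes liver 3 goes from -0.14 in the lowest class to 0.13 in the highest, and liver 2 from 0.08 to -0.07.

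The Pdia genes encode disulfide isomerases of the ER lumen. Pdia3 (XLOC_011666, chromosome 2, 121413902 to 121438686), which acts on glycoproteins with calnexin and calreticulin, had 158, 142, 137 and 147 FPKM, Pdia6 106, 91.7, 78.4 and 90.4 FPKM and Pdia4 69.2, 50.5, 57.0 and 56.2 FPKM. All 3 were highest in liver 1, by 1.16-fold to 1.37-fold over the lowest liver. Pdia5 had 21.4, 19.2, 26.97 and 21.4 FPKM and was highest in liver 3. The span of Pdia6, the gene with the ER stress element in its promoter window, is shared with Atp6v1c2 in the table. The founding member of the enzyme family, P4hb, has another symbol and had 872, 783, 747 and 947 FPKM, above every Pdia gene in every liver.

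KDEL receptors return chaperones that carry a KDEL-type end from the Golgi. Kdelr1 (XLOC_018764, chromosome 7, 45872840 to 45883726) had 79.2, 86.6, 91.3 and 87.4 FPKM and Kdelr2 71.7, 61.6, 65.4 and 65.5 FPKM. Kdelr1 was above Kdelr2 in all 4 livers, and the range over livers was 1.15-fold and 1.16-fold. They held 56.3 ± 2.85% and 43.2 ± 2.72% of the receptor total (SD, n = 4), and Kdelr3 0.572 ± 0.188%.

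The p24 proteins sort cargo into vesicles between the ER and the Golgi. Tmed2 (XLOC_016152, chromosome 5, 124540791 to 124550503) was the most abundant, with 53.2, 50.4, 39.7 and 49.9 FPKM, lowest in liver 3. Its partner Tmed10 had 38.4, 37.6, 42.2 and 35.4 FPKM and was highest in liver 3. The means of Tmed4, Tmed7, Tmed9, Tmed5 and Tmed3 went from 37.9 down to 16.8 FPKM. Tmed1 was lowest among the expressed genes at 9.69, 9.80, 8.26 and 8.88 FPKM in livers 1 to 4, in a span shared with Dnm2. None of the 8 expressed genes had a 1.5-fold range, against 28.4% of expressed genes in the table.

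COPII coats the vesicles that leave the ER. Sar1, the GTPase that starts the coat, was represented by Sar1b (XLOC_002655, chromosome 11, 51763663 to 51791953), the gene with the highest mean of the module, at 169, 184, 175 and 191 FPKM in livers 1 to 4 (180.1 ± 9.70, SD, n = 4). Sar1b, whose loss in humans impairs lipoprotein export from the gut, exceeded Sar1a (35.9, 39.1, 32.8 and 45.7 FPKM) in every liver and held 82.5 ± 1.44% of their sum. The 2 genes were highest in liver 4 as deposited, and Sar1b in liver 2 with equal sums. Sec16 organises the sites where vesicles leave: Sec16b (XLOC_000477, chromosome 1, 157506796 to 157568424) had 29.4, 23.1, 31.2 and 25.9 FPKM and Sec16a 13.3, 9.52, 15.2 and 12.8 FPKM. Both were highest in liver 3 and lowest in liver 2.

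The inner COPII coat is made of Sec23, which stimulates Sar1, and Sec24, which binds cargo. Sec23a had 28.5, 28.2, 28.6 and 30.8 FPKM, level in livers 1 to 3 and higher in liver 4 (Dixon ratio 0.844). With equal sums it had 29.0, 28.8, 29.5 and 28.8 FPKM, and liver 4 was no longer high. Sec23b (XLOC_011779, chromosome 2, 144556229 to 144590753) had 20.3, 12.3, 17.0 and 17.7 FPKM, with liver 2 below the rest, so that the share of Sec23a was highest there, at 69.6% against 58.4% to 63.5% in the other livers. Sec24d (XLOC_013523, chromosome 3, 123267496 to 123365636) had 28.6, 19.6, 28.9 and 26.5 FPKM and Sec24c 24.8, 20.5, 33.2 and 24.4 FPKM. These 2 genes overlapped in level, at 35.3 ± 2.91% and 34.9 ± 2.49% of the Sec24 total (SD, n = 4), and both were highest in liver 3. Sec24a (15.6, 15.9, 18.9 and 16.8 FPKM) held 23.1 ± 2.14% and Sec24b (4.47, 4.72, 4.98 and 5.33 FPKM) 6.74 ± 0.952%. Liver 2 was lowest for Sec24c and Sec24d, and liver 1 for Sec24a and Sec24b (liver 4 for Sec24a with equal sums).

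The outer COPII coat is made of Sec13 and Sec31. Sec31a had 57.8, 47.4, 61.7 and 55.2 FPKM and held 96.6 ± 0.514% of the Sec31 total (SD, n = 4), against 2.28, 1.71, 2.44 and 1.54 FPKM for Sec31b. Sec13, also part of the nuclear pore, had 46.5, 35.8, 41.1 and 53.1 FPKM, with liver 2 lowest. Sec23ip, which binds Sec23 and Sec31, had 4.87, 4.70, 6.99 and 5.08 FPKM and was highest in liver 3.

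Of the 14 COPII genes, 9 were lowest in liver 2, against 29.9% of expressed genes, and 8 were highest in liver 3, against 26.8%. The median difference from the gene mean was 0.02, -0.19, 0.16 and 0.04 in livers 1 to 4. Without liver 3 the median in liver 2 was -0.11, and without liver 2 that in liver 3 was 0.06. Within GC classes 10 of 14 were lowest in liver 2 (25.8% of expressed genes) and 9 highest in liver 3 (27.9%), with medians of -0.16 and 0.15. Liver 2 also had the lowest summed hepatocyte markers (40230 FPKM, against 48688 to 50153 in the other livers), with 1 of the 6 above its mean there. However, 2 of the 6 were lowest in liver 2, as many as in liver 1 and in liver 3. The most abundant, Apoa2, had 17254.5, 11165.5, 20665.2 and 13518.2 FPKM in livers 1 to 4. Liver 2 had the highest summed stellate and fibroblast markers (291 FPKM, against 187 to 228), and the highest neutrophil markers (15.8 FPKM, against 7.61 to 9.64). Macrophage markers summed to 51.2, 62.8, 46.3 and 62.4 FPKM, endothelial markers to 36.3, 44.9, 39.1 and 46.2 FPKM, and cholangiocyte markers to 19.3, 21.9, 20.3 and 17.6 FPKM. Their part in the COPII levels was not tested.

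**Figure D3:**
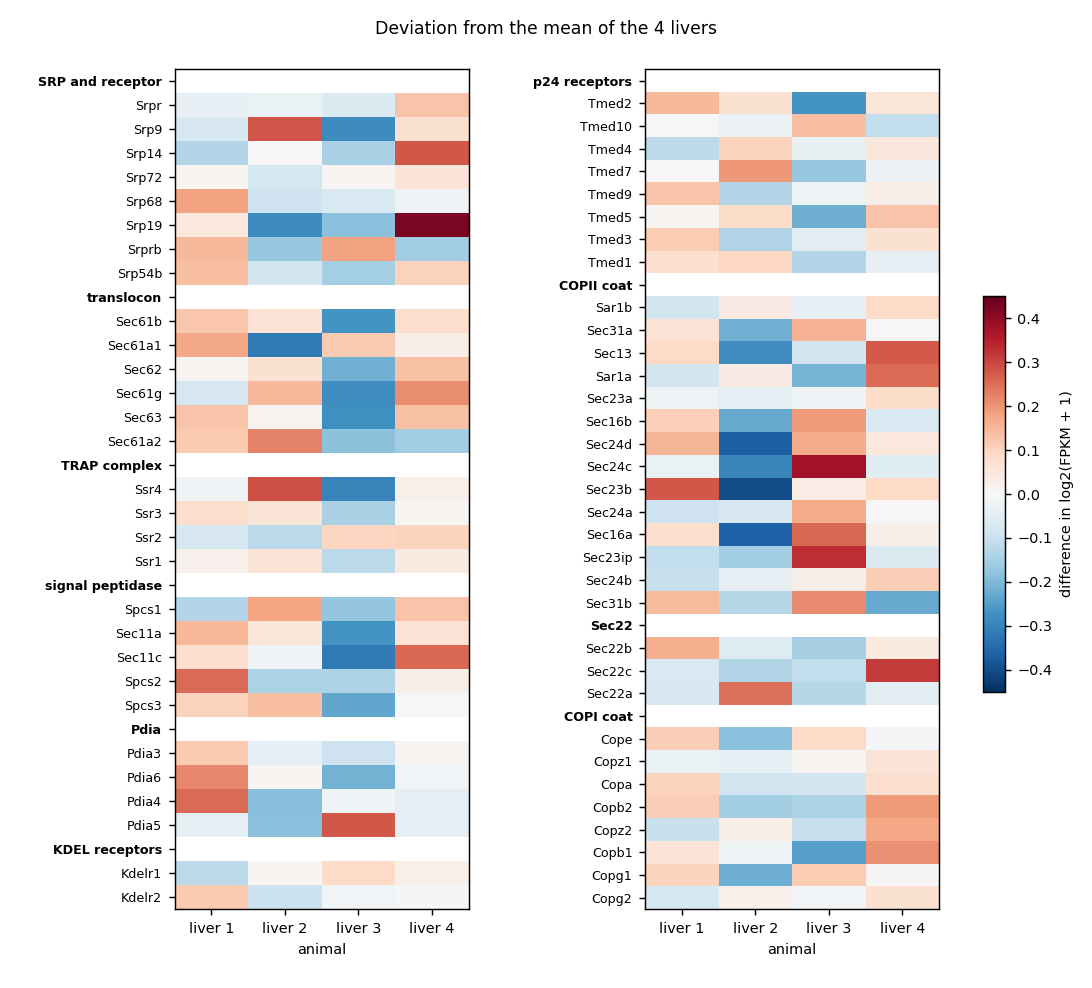
Difference of each expressed gene from its mean over the 4 livers in log2(FPKM + 1), 1 row per gene, grouped by family, with red above and blue below the mean. Translocon and signal peptidase rows are mostly blue in liver 3, and COPII rows are mostly blue in liver 2 and red in liver 3.

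The Sec22 proteins include Sec22b, a SNARE of ER to Golgi transport. Sec22b had 25.8, 22.01, 20.6 and 23.7 FPKM and held 72.8 ± 2.50% of the total (SD, n = 4). Sec22c had 4.31, 4.07, 4.16 and 5.93 FPKM, with liver 4 apart from the others (Dixon ratio 0.850, or 0.818 with equal sums), and Sec22a 3.69, 4.85, 3.51 and 3.76 FPKM. The last 2 overlapped in level.

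COPI coats the vesicles that return to the ER. Cope (XLOC_020737, chromosome 8, 70302785 to 70312990), the epsilon subunit, had 138, 112, 135 and 127 FPKM and was lowest in liver 2. The alpha subunit Copa, in a span shared with Ncstn, had 69.2, 60.3, 60.4 and 67.5 FPKM, and the beta subunits Copb2 and Copb1 had 58.0, 48.1, 48.5 and 61.4 FPKM and 38.8, 36.5, 31.2 and 42.9 FPKM. Liver 4 was highest for both beta subunits as deposited, and for Copb1 with equal sums. Copz1 and Copz2, alternative zeta subunits, had 94.0, 93.3, 97.0 and 100.2 FPKM and 45.6, 50.01, 45.5 and 55.4 FPKM. Of the alternative gamma subunits, Copg1 had 26.2, 20.8, 26.4 and 24.4 FPKM and Copg2 7.43, 8.05, 7.84 and 8.35 FPKM, the latter in a span that also holds Mest. Copz1 held 66.2 ± 1.76% of the zeta total and Copg1 75.4 ± 2.64% of the gamma total (SD, n = 4). The delta subunit, under the symbol Arcn1, had 51.4, 44.5, 49.0 and 50.4 FPKM. None of the 8 genes had a 1.5-fold range (28.4% of expressed genes), and 5 of the 8 were lowest in liver 2 (29.9%), or 3 with median-ratio scaling.

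**Figure D4:**
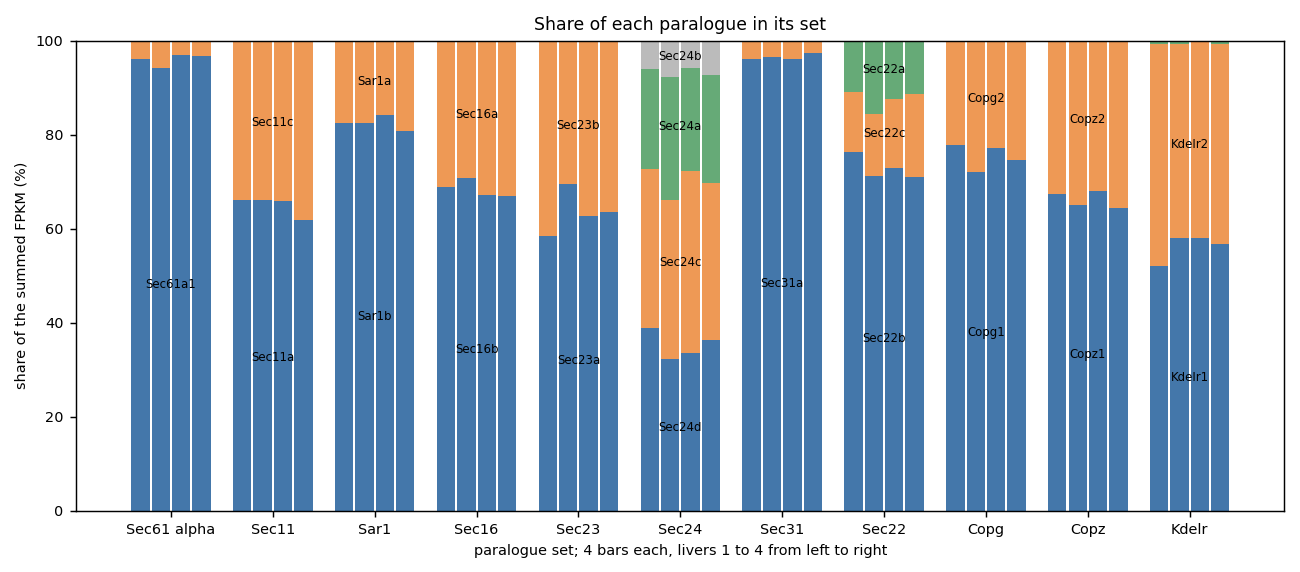
Share of each paralogue in the summed FPKM of its set, 4 stacked bars per set for livers 1 to 4 from left to right. The bars of a set look alike, with the same leading gene in all 4 livers except in the Sec24 set, where Sec24d leads in livers 1 and 4 and Sec24c in livers 2 and 3.

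Order within the sets of paralogues was the same in every liver for most pairs. The ranges over livers overlapped for Sec24d and Sec24c and for Sec22c and Sec22a, and not for the other pairs of neighbours in level. An exact sign-flip test over 4 livers cannot pass 0.05, so no p-value is given.

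Counted over all 62 genes, 18, 10, 13 and 21 were highest in livers 1 to 4, against 17.9%, 22.0%, 26.8% and 33.3% of expressed genes. In percent the module's counts were 29.0%, 16.1%, 21.0% and 33.9%. The lowest liver was liver 1 for 6 genes, liver 2 for 27, liver 3 for 27 and liver 4 for 2 (9.68%, 43.5%, 43.5% and 3.23%), against 20.7%, 29.9%, 31.4% and 18.1%. The counts for liver 4 moved with the scaling of the libraries. The highest liver was liver 4 for 12 genes with median-ratio scaling (23.3% of expressed genes) and for 9 with equal sums (1641 of the 10541 expressed genes). The lowest was liver 4 for 4 genes with median-ratio scaling (24.6%) and for 13 with equal sums (3478 of the 10541). The median difference over the 62 genes was 0.07, -0.04, -0.09 and 0.05 in livers 1 to 4, against -0.01, -0.02, -0.01 and 0.04 over all expressed genes. The direction in liver 4 turned with equal sums and within GC classes. The median was 0.0006 with median-ratio scaling and -0.0033 within GC classes. With equal sums it was -0.0450 over the members then expressed and -0.0497 over all genes then expressed. Over the 10541 genes expressed as deposited it was -0.0443 with equal sums. The module's median in liver 2 was -0.02 with median-ratio scaling, -0.01 with equal sums and -0.06 without liver 3. The value for liver 1 was 0.04 without liver 2 and 0.03 without liver 3. That for liver 3 was -0.04 without liver 4, -0.03 within GC classes and -0.04 with equal sums (0.03 over all genes then expressed). For livers 2 and 3 the module's medians with equal sums were also taken over the members then expressed.

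**Figure D5:**
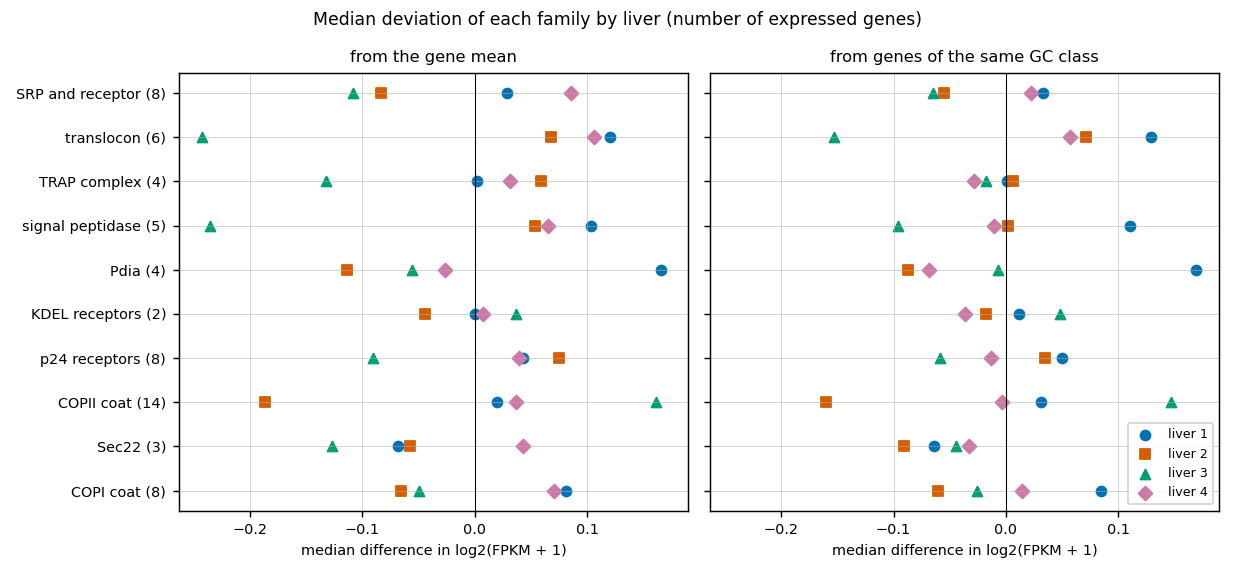
Median difference from the gene mean, in log2(FPKM + 1), for each family and liver, as deposited and taken within GC classes, with the number of expressed genes in brackets. COPII lies at -0.19 in liver 2 and 0.16 in liver 3, the translocon and signal peptidase at -0.24 in liver 3, and within GC classes the last 2 move to -0.15 and -0.10.

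Genes that work beside the module were examined as 5 lists. Oligosaccharyltransferase, which adds sugar chains at the translocon, had 12 of 12 genes expressed and 10 lowest in liver 3 (31.4% of expressed genes), the same liver as most ER entry genes, but 6 with equal sums, where 2669 of the 10541 expressed genes were lowest there. Its small subunits Dad1 (231, 293, 195 and 264 FPKM) and Krtcap2 (108, 153, 103 and 126 FPKM) were highest in liver 2, and its catalytic subunits Stt3a (46.1, 42.8, 40.8 and 43.0 FPKM) and Stt3b (28.1, 26.7, 23.3 and 27.6 FPKM) in liver 1. A range of at least 1.5-fold was found for 2 of the 12, against 28.4% of expressed genes. Of 15 other ER insertion factors with a row, all were expressed. In liver 3, 7 were lowest (31.4% of expressed genes) and 4 highest (26.8%). Among the 7 was Tram1, a translocon partner, with 59.4, 62.2, 43.7 and 60.3 FPKM. In that list Tram2 (2.60, 2.52, 3.63 and 2.02 FPKM) was the only gene of 15 with a 1.5-fold range (28.4% of expressed genes), and it was highest in liver 3.

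ER chaperones and folding enzymes, 18 of 18 expressed, lay above their mean in liver 1 for 17 genes, against 47.2% of expressed genes. Hspa5 (BiP), the main ER chaperone, had 229, 192, 219 and 212 FPKM, and Calr (calreticulin) 371, 288, 345 and 319.6 FPKM. Both were highest in liver 1 and lowest in liver 2. A 1.5-fold range was found for 3 of the 18, against 28.4% of expressed genes. Of these Creld2 had 14.6, 8.65, 16.6 and 13.4 FPKM, Hyou1 23.3, 15.1, 25.7 and 16.9 FPKM and Manf 30.6, 19.9, 28.0 and 20.3 FPKM. All 3 were lowest in liver 2, though Manf was lowest in liver 4 with equal sums.

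Other ER to Golgi transport genes, 20 of 20 expressed, had 12 lowest in liver 2 (29.9% of expressed genes) and 18 above their mean in liver 4 (60.8%). With equal sums 9 were above their mean in liver 4 (38.1%). Preb, the factor that loads Sar1 with GTP, had 23.4, 17.0, 22.03 and 21.3 FPKM, and the SNARE Stx5a had 25.6, 18.9, 28.7 and 24.02 FPKM, the only one of the 20 with a 1.5-fold range (28.4% of expressed genes). Liver 2 was lowest for both, as for most COPII genes. Lman1, a receptor that carries clotting factors, had 71.1, 68.9, 78.6 and 81.7 FPKM, and Surf4, a receptor for lipoproteins, 143, 125, 126 and 131 FPKM.

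Of the regulators of the unfolded protein response, 8 of 12 had a 1.5-fold range, against 28.4% of expressed genes. Several of the 8 were low in level, where such ranges are more common. Creb3l1, Creb3l2, Ppp1r15a, Ern1 and Eif2ak3 had means of 1.21, 2.91, 3.67, 3.89 and 4.71 FPKM. The others were Xbp1, Atf6b and Ddit3, with means of 101, 7.53 and 5.85 FPKM. Leaving out genes below 5 FPKM lowered the share of expressed genes to 18.1%, and the regulators were not recounted that way. Xbp1, a transcription factor that acts on secretory genes, had 85.1, 72.7, 143 and 104 FPKM, highest in liver 3 and lowest in liver 2. Atf6b (7.20, 5.44, 10.3 and 7.22 FPKM) had the same order at both ends. Ddit3 (CHOP), a stress-induced factor, had 8.61, 5.82, 4.39 and 4.57 FPKM, and Eif2ak3 (PERK) 6.29, 4.34, 3.73 and 4.49 FPKM, both highest in liver 1 and lowest in liver 3, though Ddit3 was lowest in liver 4 with equal sums. The counts for these lists were not recomputed within GC classes. Gene levels do not separate the spliced form of Xbp1 from the unspliced one.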

How the data were processed

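RNA was measured by poly(A)-enriched RNA sequencing of 4 livers of 1 group, per the labels' protocols. The submitters' processing notes name FastQC 0.10.1, Trim Galore 0.6.3, cutadapt, STAR 2.7.6a, Cufflinks 2.2.1 and the build mm10. The table the authors deposited names no unit. Its values were taken as FPKM, from their form and the Cufflinks-style identifiers, and were used as deposited. Rows whose span merges neighbouring protein-coding genes are named in the text. The spans of Sec24c, Copz1 and Copz2 are each also listed for a microRNA gene. Each start had 1 added.

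Levels were analysed as log2(FPKM + 1) with Python 3.11.15, numpy 2.4.6 and pandas 2.3.3, and the calculations were tested on simulated data. An FPKM table holds no fragment counts, so no count test was run. Depth was estimated from the lowest values of genes with 1 annotated transcript over 800 bases, and is approximate. Duplicate libraries were looked for: at most 1 non-zero value was identical between 2 livers. All columns were matched to samples. The labels number the livers and do not otherwise say that each came from its own animal.

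Members and lists were chosen with earlier results of these data known. Values in every liver are given for expressed members that lead or end their family, have a paralogue, reach a 1.5-fold range, pass Dixon's ratio (0.829 for 4 samples) or are listed at 0. Genes outside the module come from the fixed lists. The comparison within GC and length classes, and the scaling of the lists, were added after the data were seen. Protein ends were not examined, and promoter windows were not used for 10 symbols.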

Additional observations from a re-analysis of the deposited data

Results flagged for a closer look

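A single liver lay apart from the other 3, by a gap larger than Dixon's 95% critical share of the whole range, for 17 values. Among all expressed genes 5.46% pass this bound, and chance alone flags about 5 in 100 groups. The gene levels flagged were 4 of the 62 members (6.45%), 1 of 12 oligosaccharyltransferase genes and 0 of 18 chaperones and folding enzymes. They were also 2 of 15 other insertion factors, 1 of 20 other ER to Golgi genes and 2 of 12 regulators. For the paralogue shares and family values no such background was computed. Liver 4 was high for Srpr (0.832), Sec23a (0.844), Sec22c (0.850) and, among the listed partners, Mia2 (0.842), and low for Magt1 (0.934). Liver 3 was low for Sec61b (0.852) and Tram1 (0.867) and high for Ern1 (0.888). Liver 2 was low for Emc1 (0.928) and high for Atf6 (0.905). Magt1 and Atf6 had ranges of only 1.04-fold and 1.06-fold.

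Of the shares, Sec11a was low and Sec11c high in liver 4 (0.937 for each, since the shares sum to the whole), and Sec24c was high in liver 3 (0.933), at 38.6% of the Sec24 total against 33.4% to 33.8% elsewhere. Of the family values, liver 3 was low for the median difference of the translocon (0.855) and of signal peptidase (0.852), and for the summed FPKM of signal peptidase (0.831) and of the p24 genes (0.836). Signal peptidase summed to 216, 219, 177 and 223 FPKM in livers 1 to 4, and the p24 genes to 256, 257, 233 and 253 FPKM. With the libraries scaled to an equal sum, of the 10 gene levels Magt1 (0.910) and Ern1 (0.922) passed the bound and the other 8 did not. Of the 4 family values, the sums taken over expressed genes, none passed it, with 0.613 for the translocon, 0.506 and 0.640 for signal peptidase and 0.158 for the p24 genes. With median-ratio scaling Magt1 (0.904), Ern1 (0.972), Sec22c (0.852) and the summed FPKM of signal peptidase (0.853) passed it, and the other 7 gene levels and 3 family values did not. Shares do not change with scaling.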

How the results depend on the processing

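Results were recomputed with pseudocounts of 0.1 and 5, filters of any value above 0 and of 5 FPKM, median-ratio scaling, scaling to an equal sum, means in place of medians, GC and length classes, and without each liver. Of the values on main results, 156 stayed within the spread or within 1.5 times the count and 22 did not. The signed values among them, the 4 median differences over the module, all lay within 0.1 of 0, so that none counted as a call whose sign could be lost. Their spread was the SD of the 4 liver medians. Changes of sign in liver 4 within GC and length classes therefore count among the 156. Of the values on single families and genes, 838 stayed and 22 did not. All 22 were medians of families. Single genes and shares were recomputed only without each liver and were held against their own SD. Leaving out 1 of 4 values cannot move a mean that far, so those checks could not fail. Genes of ER entry lowest in liver 3 numbered 10 within GC classes (27.3% of expressed genes), against 16 (31.4%). COPII genes lowest in liver 2 ranged from 7 to 11 (23.7% to 40.0% of expressed genes) and highest in liver 3 from 7 to 10 (24.96% to 35.9%) over all alternatives. Genes lowest in liver 1 numbered 10 within GC classes (21.0%). Genes highest in liver 4 numbered 12 under median-ratio scaling (23.3% of expressed genes), 9 scaled to an equal sum (15.2%) and 13 within length classes (23.8%), against 21 as deposited (33.3%). Genes lowest in liver 4 numbered 1 with the 5 FPKM filter (11.3%), 4 under median-ratio scaling (24.6%), 13 scaled to an equal sum (34.2%), 9 within GC classes (25.8%) and 6 within length classes (24.8%), against 2 as deposited (18.1%). The median difference in liver 4 was 0.0492 as deposited and changed sign. It was -0.0450 scaled to an equal sum (over the members then expressed), -0.0033 within GC classes and -0.0005 within length classes. With an equal sum the median was -0.0497 over all genes then expressed and -0.0443 over the 10541 expressed as deposited.

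Without 1 liver, the median SD lay between 0.12 (without liver 3) and 0.19, and genes with a 1.5-fold range between 2 and 7. Counts over 3 livers are equal or larger by construction: 22 to 28 genes were highest (24.99% to 29.8% of expressed genes) and 6 to 18 lowest (26.4% to 34.9%) in liver 1, 10 to 19 highest in liver 2 (27.3% to 34.2%), and 25 to 33 highest (40.1% to 44.4%) and 2 to 12 lowest (22.8% to 26.97%) in liver 4. Dixon's ratio was not run on 3 livers, and the planned count of protein ends was not run. No paired analysis was possible because there is a single group. Fragment numbers limit the genes below 1 FPKM, and the FPKM of very short transcripts rests on the length model.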
